A study of Mus musculus with 24 samples.

Results

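Retinoids were followed here through 9 genes, namely *Rbp4*, *Stra6*, *Aldh1a1*, *Aldh1a2*, *Aldh1a3*, *Crabp1*, *Crabp2*, *Rarb* and *Cyp26b1*. These genes serve to carry or take up retinol, or to make, bind, sense or degrade retinoic acid. They were chosen by name out of 23420 genes with results of these data in view, among them the low *Crabp1* of P5 *Vangl2* mutants, so their mutant-control values are a description and support nothing about the group. RNA came from the left lung lobe of mice whose *Vangl2* (*Vangl2* f/f; *Sox9* Cre/+) or *Ror2* (*Ror2* f/f; *Sox9* Cre/+) had been deleted by *Sox9* Cre, at postnatal day 2 (P2) or 5 (P5), with 3 mutant and 3 control lungs in each of the 4 comparisons, which gave 24 lungs in 8 groups. Each comparison had its own controls, titled Control(Vangl1/2) or Control(Ror2) and entered as WT for genotype, and the labels do not say whether controls carried Cre or a floxed allele. *Sox9* Cre removes a floxed gene from the distal lung epithelium, while the lobes were sequenced whole, so that each value mixes epithelium with mesenchyme, mesothelium, vessels and blood. A lower value can come from fewer cells of a type or from less RNA per cell, which cannot be told apart in such samples. The genotype entries of 6 of the 12 mutant lungs name the other gene. Affected were all mutants of 2 comparisons, *Vangl2* at P5 plus *Ror2* at P2. The sample titles were followed, so the results of both comparisons rest on titles that conflict with the genotype entries.

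Vitamin A circulates as retinol, is taken up by cells and is oxidized to retinal and then to retinoic acid, the form that binds nuclear receptors. Cells limit the signal by holding retinoic acid on binding proteins and by hydroxylating it. In the lung, retinoic acid is known for its part in branching, in the formation of alveoli and in lipid-storing fibroblasts.

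Values are normalized counts, that is gene reads scaled by the size factor of the lung, set within a table of 6 lungs. Gene reads numbered from 13823693 to 21546673 in the 21 lungs for which they could be recovered, and at least 16178031 once control replicate 1 of the P5 *Ror2* comparison was set aside. That lung listed 4222 of 4462 expressed genes of chromosomes 5 to 9 and X at 0, against 3 of 8909 on other chromosomes, so it was treated as missing for these chromosomes, which leaves 2 control lungs for *Stra6*, *Aldh1a2*, *Aldh1a3*, *Crabp1* and *Cyp26b1* in this comparison. As a check of the tissue, 8 alveolar type II cell markers summed to 179982 normalized counts or more in each lung with a value. The targeted genes were lower in the whole lobe by a limited amount. *Vangl2* was at 277 ± 26.7 (SD, n = 3) in controls and 213 ± 35.3 in mutants at P2, and at 325 ± 39.3 and 161 ± 11.7 at P5, without overlap at either age. *Ror2* was at 517 ± 65.1 and 398 ± 70.8 at P2 and at 497 ± 118 and 441 ± 79.7 at P5, with overlap at both ages, so the *Ror2* labels have no clear check at the RNA level. In the comparisons with conflicting genotype entries, the gene not named by the title overlapped between groups. *Ror2* was at 525 ± 74.4 in controls and 388 ± 138 in mutants at P5 *Vangl2*. *Vangl2* was at 269 ± 23.2 in controls and 232 ± 21.7 in mutants at P2 *Ror2*. *Xist* is expressed from the inactive X chromosome. In P5 *Ror2* lungs it was between 5.22 and 130 in the 3 mutants and at 11858 in 1 of the 2 controls with a value. It was at 19969 or more in 3 of 3 P5 *Vangl2* controls but at 19.2 in 1 of 3 mutants. At P2 *Vangl2* it was at 22393, 23.7 and 115 in controls and at 202, 20524 and 18947 in mutants. At P2 *Ror2* it was at 122, 22660 and 199 in controls and at 283, 24766 and 103 in mutants. The sexes were thus not balanced except at P2 *Ror2*. The part of sex in the values below was not tested. Control replicate 3 of the P5 *Vangl2* comparison stood apart in 6 liver markers, which summed to 5429 in it and to between 20 and 41 in the other 5 lungs of the table.

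The binding site that made *Rarb* a textbook target of retinoic acid and the sequence before *Crabp1*, the gene of the 9 that differed most in *Vangl2* mutants, are shown first. Both were read from the RefSeq promoter table of build GRCm38.p6 (mm10), in which 7 of the 9 genes have an entry. *Crabp2* and *Aldh1a3* have none there. The search was for pairs of a 6-base receptor motif, spelled AGGTCA or with the variant spellings GGGTCA and also AGTTCA and also GGTTCA, in the same direction with 1, 2 or 5 bases between them, on both strands of the 250 bases before each start. A pair spaced by 5 bases was found before *Rarb* and before none of the other 6 genes. Such a pair was held by 0.0883% of all windows of that list, and pairs spaced by 1 and by 2 bases, found before none of the 7 genes, were held by 0.164% and 0.174%. Because AGTTCA and GGTTCA are the spellings of the *Rarb* site itself, its match was fixed by the search, and nothing is read from its rarity. The *Rarb* site, on the minus strand at chr14:16575513-16575529, ends 37 bases before the RefSeq start and lies within the first exon of 2 longer transcripts of GENCODE. Its paired motifs are in capitals.

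Rarb site: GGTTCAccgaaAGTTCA

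The window before *Crabp1* lies on the plus strand at chr9:54764498-54764747, outside annotated exons and directly before the first base of the gene. Capitals mark the GC box GGGCGG, which occurs 4 times as written and 1 time on the opposite strand, where it reads CCGCCC. Windows before 4 of the 7 genes held a GC box, against 35.4% of all genes of the table.

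Crabp1 upstream: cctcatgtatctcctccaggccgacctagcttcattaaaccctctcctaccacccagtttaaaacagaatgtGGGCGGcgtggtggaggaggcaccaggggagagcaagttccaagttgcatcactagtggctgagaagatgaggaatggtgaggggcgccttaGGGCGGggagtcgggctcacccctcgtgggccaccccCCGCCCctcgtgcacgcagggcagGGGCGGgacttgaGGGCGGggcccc

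A match is a description of letters and not a bound site.

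The levels of the 9 genes in control lungs differed widely. Per kb of exon, *Aldh1a1* was the highest in both P2 control groups and in the P5 *Vangl2* controls, at 825 ± 65.6, 992 ± 233 and 570 ± 127 normalized counts per kb, and *Crabp1* was the highest in the P5 *Ror2* controls at 704 ± 181 (SD, n = 2). *Aldh1a3*, *Crabp2* and *Stra6* took the last 3 places in every control group, with group means between 3.01 and 16.1 per kb. In the P5 *Vangl2* controls the ranges of *Aldh1a1* and *Crabp1* overlapped, at 460 to 710 and 253 to 599 per kb, so these neighbours did not differ beyond their spread. *Crabp1* ranked 5 of 9 at P2 in the *Vangl2* controls, with 83.4 ± 27.4 per kb, and 2 of 9 at P5 with 401 ± 179. The tables of the ages were normalized separately, and no test was made between them.

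**Figure D1:**
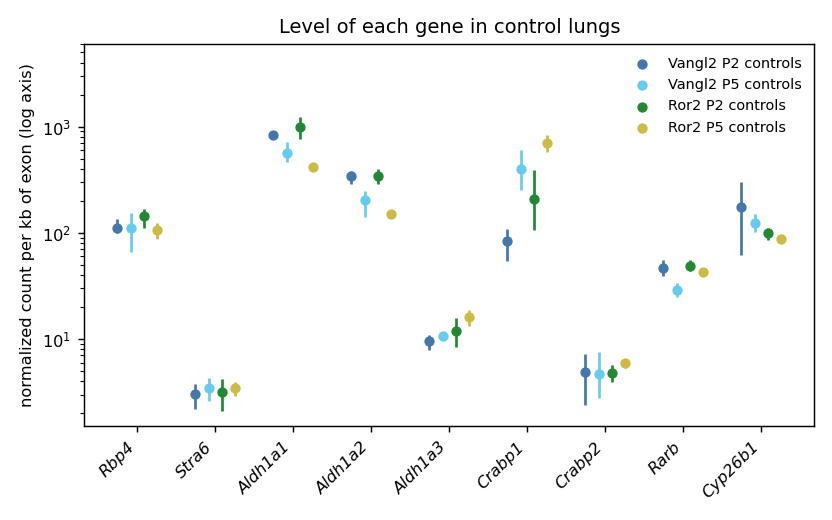
Normalized count per kb of exon (log axis) of each gene in the control lungs of the 4 comparisons; points are group means and lines run from the lowest to the highest lung (n = 3, or 2 for the 5 genes with a missing lung in the P5 *Ror2* controls). *Aldh1a1* or *Crabp1* is highest, and *Stra6*, *Crabp2* and *Aldh1a3* lie between 3.01 and 16.1 per kb.

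Of the 9 genes, all of which were tested in every comparison, 2 passed an adjusted p of 0.05 in P2 *Vangl2* mutants, where 3.59% of all genes tested did. At P5 1 passed in *Vangl2* mutants, against 0.563% of all genes, in the fit without pairing. The replicate number was also used as a block, because same-numbered lungs deviated together in this comparison (r of 0.284 to 0.512). In the other comparisons that r ran from -0.159 to 0.344, with all 3 values above 0 at P2 *Ror2*. With this block at P5 *Vangl2*, 2 of the 9 passed, against 8.95% of all genes. None of the 9 passed in *Ror2* mutants, in which the shares of all genes were 0.0% at P2 and 0.18% at P5. At P2 that count of 0 is from limma, as is that of edgeR, while 3380 genes had an unadjusted p under 0.05 and DESeq2 called 794. These shares stand beside counts that the choice of the genes had already touched, and nothing is read from them. Groups of lungs did not overlap for 3 of the 9 genes in P2 *Vangl2* mutants (29.6% of all genes tested), for 3 in P5 *Vangl2* mutants (25.7%) and for 2 in P2 *Ror2* mutants (25.7%). In P5 *Ror2* mutants they did not overlap for 1 of the 4 genes with 3 control lungs (26.1% of such genes) and for 2 of the 5 with 2 control lungs (37.7%). The median log2 fold change of the 9 genes was 0.41 and 0.29 in P2 and P5 *Vangl2* mutants and 0.02 and 0.20 in P2 and P5 *Ror2* mutants, beside 0.001, 0.003, -0.006 and 0.004 over all genes tested.

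**Figure D2:**
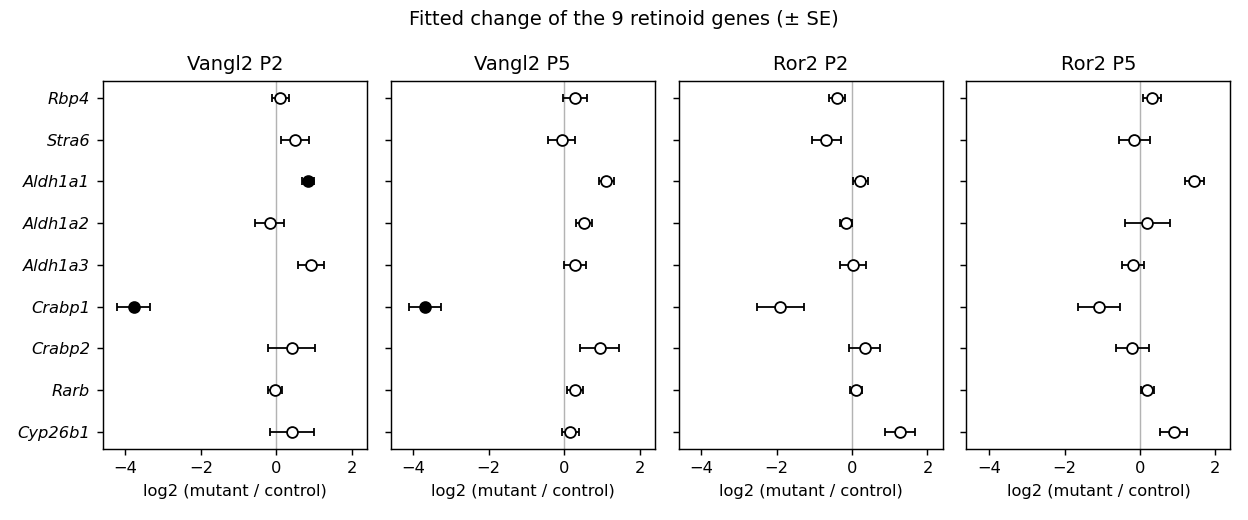
Log2 fold change of mutant over control on the log2(normalized count + 1) scale with its SE from limma, for the 9 genes in each comparison (3 mutant and 3 control lungs, or 2 control lungs for 5 genes in P5 *Ror2*); filled points have an adjusted p under 0.05. *Crabp1* is left of 0 in all 4 panels, at -3.78 and -3.69 in *Vangl2* and -1.90 and -1.09 in *Ror2* mutants, and *Aldh1a1* is right of 0 in all 4.

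Among the genes that deliver retinol, *Rbp4* encodes its carrier in blood and *Stra6* the receptor that takes retinol from the carrier. *Rbp4* was between 89.3 and 226 normalized counts in the 12 control lungs and between 121 and 215 in the 12 mutant lungs, and groups overlapped in each comparison. Its fitted log2 fold change lay between -0.41 (SE 0.21, P2 *Ror2*, adjusted p = 0.317) and 0.33 (SE 0.24, P5 *Ror2*, adjusted p = 0.479). In P5 *Vangl2* lungs it was at 153, 89.3 and 208 in controls and at 176, 205 and 144 in mutants, and the highest control, replicate 3, was the lung with the liver markers. The *Rbp4* change there was 0.29 (SE 0.32, adjusted p = 0.685), and 0.56 (adjusted p = 0.434) without that lung. The part of liver RNA was not tested. *Stra6* was low, between 8.53 and 35.4 over all lungs with a value, and its groups overlapped in every comparison too. At P2 it was at 12.6, 21.8 and 18.2 in *Vangl2* controls and 19.6, 35.4 and 21.4 in mutants, and at 12.4, 19.3 and 24.2 in *Ror2* controls and 15.8, 8.53 and 9.5 in mutants. Neither gene separated the groups.

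Retinal is oxidized to retinoic acid by the enzymes encoded by *Aldh1a1*, *Aldh1a2* and *Aldh1a3*. *Aldh1a1* was at 3955, 4440 and 3826 normalized counts in P2 *Vangl2* controls and at 9047, 5907 and 7103 in mutants. At P5 it was at 2669, 2272 and 3505 in *Vangl2* controls and at 4977, 6291 and 6863 in mutants. Each mutant lung was above each control lung at both ages. The log2 fold change was 0.83 (SE 0.16, limma adjusted p = 0.0349) at P2 and 1.11 (SE 0.20, adjusted p = 0.0604) at P5. The P2 call held in 10 of 16 other fits. It was lost without control replicate 1, 2 or 3 or mutant replicate 2, with adjusted p between 0.0712 and 0.168, and also without the trend (0.111) and with 12 lungs in one fit (0.0660). Without the P5 control with the liver markers the change was 1.28 with an adjusted p of 0.0656. Since same-numbered lungs deviate together at P5, the fit with the replicate number as a block is given as well, and it gave adjusted p = 0.0111 and 2 of the 9 genes past the threshold. In P5 *Ror2* lungs it was at 1959, 1973 and 2205 in controls and 6721, 7320 and 3496 in mutants, again without overlap, with a log2 fold change of 1.44 (SE 0.25, adjusted p = 0.0806). Mutant replicate 3 was the lowest of these mutants, and without it the change was 1.78 with an adjusted p of 0.00195. That fit called 893 of 17030 genes and was the only 1 of 15 other fits in which *Aldh1a1* passed. Leaving out 1 lung gave changes from 1.25 to 1.78. At P2 *Ror2* groups overlapped, at 3783, 4822 and 6081 in controls and 5968, 4534 and 6460 in mutants, with a log2 fold change of 0.22 (SE 0.20, adjusted p = 0.550). The difference between the *Ror2* changes at P5 and P2 was 1.23 (SE 0.36, unadjusted p = 0.0054, adjusted p = 0.452).

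*Aldh1a1* is known to be expressed in airway epithelium, and the marker lists of airway cells moved with it. The summed counts of 5 airway club cell markers (*Scgb1a1*, *Scgb3a2*, *Cyp2f2*, *Hp* and *Aldh3a1*) ran from 125926 to 156492 in P2 *Vangl2* controls and from 223526 to 259356 in mutants, and from 57281 to 108801 and from 183201 to 230736 at P5. In P5 *Ror2* lungs they were 72945 and 79097 in 2 controls and 130844 to 250832 in mutants, lowest in mutant replicate 3 as for *Aldh1a1*, while at P2 they ran from 114668 to 182663 and from 150489 to 263798. Of these 5 markers 1, *Hp*, passed the threshold upward at P2 and at P5 in *Vangl2* mutants, and none in *Ror2* mutants. For 5 ciliated cell markers found in the tables (*Foxj1*, *Ccdc39*, *Tekt1*, *Tmem212* and *Dynlrb2*) the sums ran from 2013 to 2648 and from 3045 to 5315 in P2 *Vangl2* controls and mutants, from 896 to 1964 and from 2979 to 3373 at P5, from 1744 to 4556 and from 2416 to 3096 at P2 *Ror2*, and from 617 to 708 and from 1269 to 2656 at P5 *Ror2*. None of these 5 passed the threshold in any comparison, and none of the club or ciliated markers was at 0 in any lung. Over 24 lungs, on the log2 scale centred on each table, Pearson's r of *Aldh1a1* was 0.97 with the mean of the club list and 0.94 with that of the ciliated list. With each group centred it was 0.88 and 0.81. Lungs share their library and table, and the part of airway cells in the *Aldh1a1* values was not tested.

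**Figure D3:**
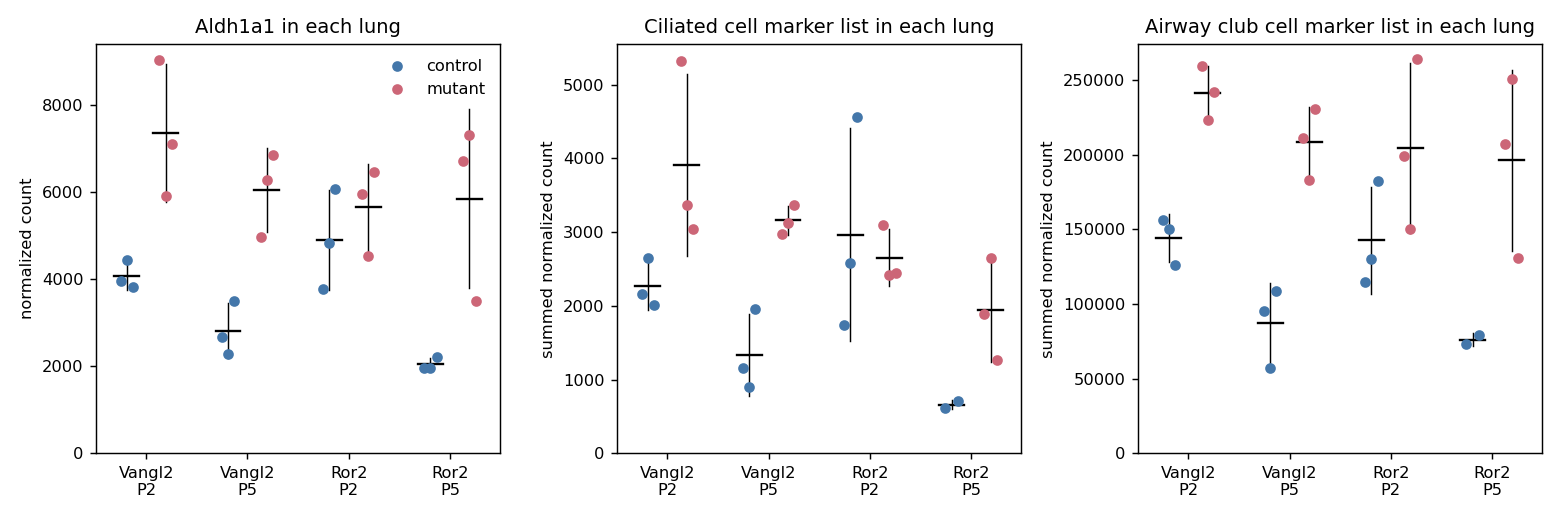
Normalized counts of *Aldh1a1* and summed normalized counts of the ciliated and airway club cell marker lists in each lung (linear axes from 0); points are lungs, bars the mean and lines ± SD. Control 1 of P5 *Ror2* is missing in the 2 marker panels. *Aldh1a1* and club sums do not overlap between groups except in P2 *Ror2*, and the ciliated sums likewise.

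*Aldh1a2*, known for its expression in mesothelium and mesenchyme, was at 648, 812 and 868 in P2 *Vangl2* controls and 540, 425 and 1381 in mutants, with the highest and lowest values both among the mutants. At P5 it was at 557, 321 and 507 in *Vangl2* controls and at 653, 712 and 591 in mutants, without overlap, with a log2 fold change of 0.53 (SE 0.22, adjusted p = 0.244). In P5 *Ror2* lungs it was at 336 and 352 in 2 controls and at 1026, 253 and 240 in mutants. The widely spread mutant groups had 1 high lung each, mutant replicate 3 at P2 *Vangl2* and mutant replicate 1 at P5 *Ror2*. In these lungs the sum of 7 mesothelial cell markers was the highest too, at 15727 in the first, against 6466 to 8617 in its controls, and at 10072 in the second, against 3321 and 3355. Without the first lung *Aldh1a2* passed the threshold at P2 *Vangl2*, at -0.68 (SE 0.17, adjusted p = 0.0402). That fit left out the highest mutant, called 2333 of 17146 genes and was the only 1 of 16 other fits in which *Aldh1a2* passed. Over 23 lungs Pearson's r with the mesothelial list was 0.91 centred on tables and 0.96 centred on groups, and 0 of the 7 markers passed the threshold in any comparison or was at 0 in any lung. Mutant replicate 1 of P2 *Vangl2* went the other way, with a mesothelial sum of 11607, above its controls, and *Aldh1a2* at 540, below them. The share of mesothelium in each lobe was not tested.

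*Aldh1a3* was at 46.3, 36.0 and 50.8 in P2 *Vangl2* controls and at 87.9, 54.1 and 125 in mutants, without overlap (log2 fold change 0.92, SE 0.34, adjusted p = 0.166). It overlapped in the other comparisons, with log2 fold changes of 0.29, 0.02 and -0.18.

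**Figure D4:**
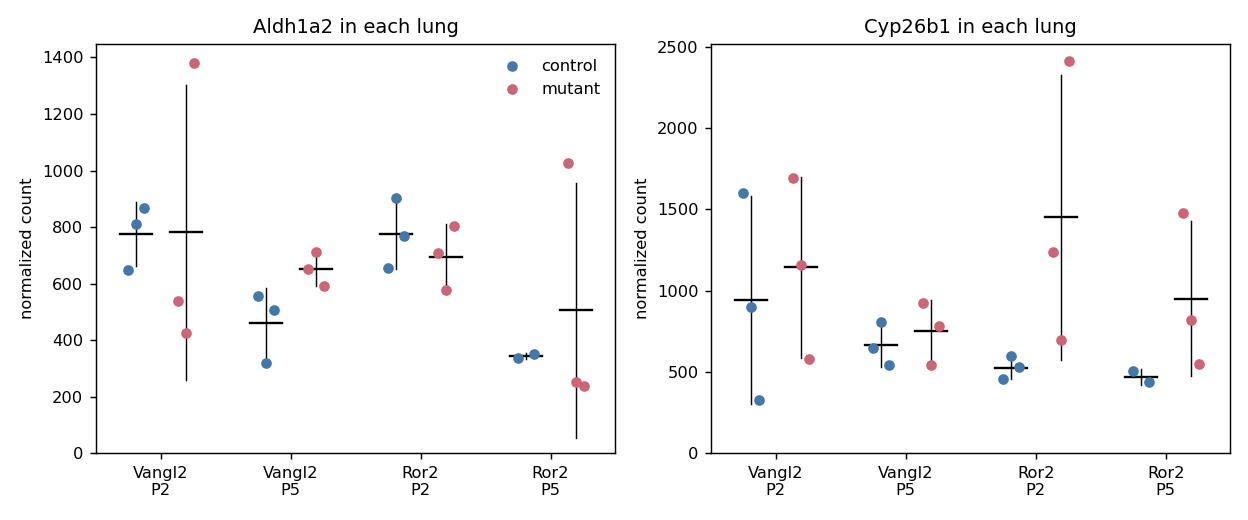
Normalized counts of *Aldh1a2* and *Cyp26b1* in each lung (linear axes from 0); points are lungs, bars the mean and lines ± SD, with 2 control lungs in P5 *Ror2*. *Aldh1a2* reaches 1381 and 1026 in 1 mutant lung each, and *Cyp26b1* is above controls in all 3 *Ror2* mutants at both ages.

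*Crabp1* encodes a binding protein that holds retinoic acid in the cytoplasm. At P2 it was at 86.4, 71.1 and 43.1 in *Vangl2* controls and at 2.07, 3.93 and 6.11 in mutants, which were 82, 75 and 45 reads against 2, 4 and 6. At P5 it was at 203, 281 and 481 in *Vangl2* controls and at 21.1, 36.9 and 14.3 in mutants. No mutant lung reached the lowest control, and the means stood 16.6-fold apart at P2 and 13.3-fold at P5. The log2 fold change was -3.78 (SE 0.44, limma adjusted p = 0.0248) at P2 and -3.69 (SE 0.43, adjusted p = 0.0148) at P5. At P2 the size depends on the pseudocount, since the mutants held few reads, and it was -2.60 with a pseudocount of 8. The difference between the ages was 0.09 (SE 0.64, adjusted p = 0.977). With 3 lungs a group the call rested on single lungs, and also on the trend, without which it was lost at both ages. It held in 12 of 16 other fits at P2 and in 9 of 14 at P5. At P2 it was lost without control replicate 2, control replicate 3 or mutant replicate 2, with adjusted p between 0.0672 and 0.162, and at P5 without control replicate 2 or 3 or mutant replicate 1 or 3, with adjusted p between 0.0532 and 0.0826 (-3.36 and 0.0532 without control replicate 3, the lung with the liver markers), while the log2 fold change stayed between -4.07 and -3.36 over all the fits that left out 1 lung.

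In *Ror2* lungs *Crabp1* was lower by less. At P2 it was at 85.6, 313 and 106 in controls and 29.3, 79.6 and 22.1 in mutants (log2 fold change -1.90, SE 0.62, adjusted p = 0.208), while DESeq2 on recovered reads gave -1.94 with an adjusted p of 0.0385. At P5 it was at 462 and 667 in 2 controls and at 109, 356 and 451 in mutants (log2 fold change -1.09, SE 0.56, adjusted p = 0.345). Mutant lungs again lay below the lowest control at both ages, at P5 by a narrow margin. The *Vangl2* and *Ror2* changes differed by -1.88 (SE 0.81, unadjusted p = 0.0394, adjusted p = 0.946) at P2 and by -2.60 (SE 0.78, unadjusted p = 0.0066, adjusted p = 0.769) at P5, so neither difference passed the threshold after adjustment. None of the 9 genes passed for any of the 4 such differences (0.0% of all genes for P5 against P2 in *Vangl2*, 0.0% in *Ror2* and 0.0% for *Vangl2* against *Ror2* at P2, with 1442, 1614 and 788 genes at an unadjusted p under 0.05, and 0.0118% at P5).

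**Figure D5:**
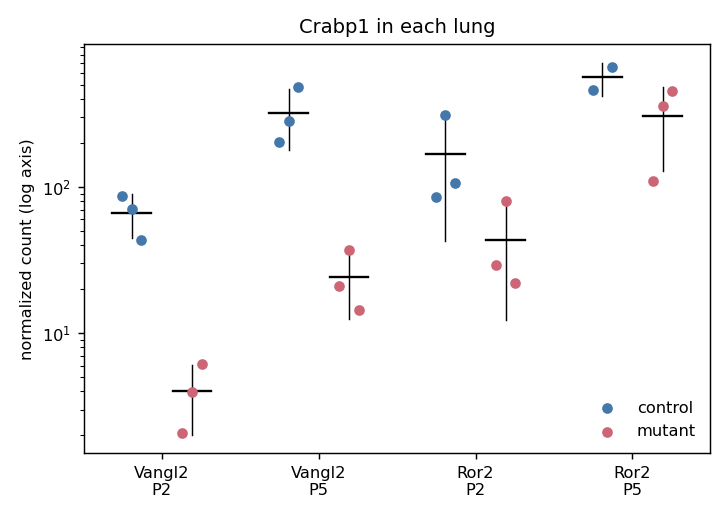
Normalized count of *Crabp1* in each lung (log axis) for the 4 comparisons; points are lungs, bars the mean and lines ± SD, with 2 control lungs in P5 *Ror2*. The *Vangl2* mutants lie at 2.07 to 6.11 at P2 and 14.3 to 36.9 at P5, below all their controls, and the *Ror2* mutants lie nearer to theirs.

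Marker lists of other cells moved in the same lungs. The summed counts of 7 neutrophil markers ran from 2298 to 3577 in P2 *Vangl2* controls and from 7152 to 7364 in mutants, with 6 of 7 past the threshold upward, and from 1835 to 2978 and from 6125 to 13096 at P5, with 2 of 7. Those of 9 myofibroblast and smooth muscle markers ran from 57181 to 69640 and from 46850 to 55388 at P2, with 1 of 9 past the threshold downward, and from 57033 to 69306 and from 32221 to 61088 at P5, with 0 of 9. Those of 6 cycling cell markers ran from 11625 to 19504 in P2 *Vangl2* controls and from 3210 to 6580 in mutants, with 6 of 6 past the threshold downward, and from 13270 to 22190 and from 9426 to 15579 at P5, with 0 of 6. In *Ror2* lungs the cycling sums ran from 8514 to 17817 in controls and from 1237 to 9385 in mutants at P2, and were 11174 and 12479 in 2 controls and 3979 to 9968 in mutants at P5, with 0 of 6 past the threshold at either age and 6 of 6 lower at an unadjusted p under 0.05 at both. Over 23 lungs Pearson's r of *Crabp1* was -0.81 with the neutrophil, 0.73 with the cycling and 0.69 with the myofibroblast list centred on tables, and -0.52, 0.50 and 0.40 centred on groups. These were not the only lists with a high r. It was -0.76, -0.71 and -0.70 with the alveolar type II, airway club and alveolar type I lists centred on tables, and -0.10, -0.16 and -0.30 centred on groups. Each r was taken with the mean log2 value of the listed genes. Their part in the *Crabp1* values was not tested. The partner gene *Crabp2*, whose product carries retinoic acid towards its receptors, was between 3.1 and 16.1 over all lungs, and its groups overlapped in every comparison.

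*Rarb* encodes a retinoic acid receptor and is itself induced by retinoic acid through the site printed above. It was between 129 and 291 in the 12 control lungs and between 167 and 316 in the 12 mutant lungs, with overlap in every comparison. Its log2 fold change was -0.03 (SE 0.18) and 0.29 (SE 0.22) in P2 and P5 *Vangl2* mutants and 0.11 (SE 0.16) and 0.20 (SE 0.17) in P2 and P5 *Ror2* mutants, with adjusted p between 0.509 and 0.930. The gene overlaps *Top2b* on the opposite strand, and since no source used here says that reads were counted by strand, reads of both may mix. The same holds for *Stra6* and *Ccdc33* and for *Aldh1a1* and *C730002L08Rik*.

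*Cyp26b1* encodes a hydroxylase that clears retinoic acid. In P2 *Ror2* lungs it was at 458, 596 and 530 in controls and 1241, 699 and 2412 in mutants, and at P5 at 507 and 437 in 2 controls and 1480, 820 and 552 in mutants. Each *Ror2* mutant lung was above each control lung, but the mutants spread by 3.45-fold at P2 and 2.68-fold at P5, and the log2 fold changes were 1.28 (SE 0.40, adjusted p = 0.206) and 0.89 (SE 0.37, adjusted p = 0.260). Without mutant replicate 2, the lowest of these mutants, the P2 change was 1.72 with an adjusted p of 0.0375, in a fit that called 859 of 17409 genes. DESeq2 on recovered reads gave 1.46 with an adjusted p of 0.00967. These were the 2 of 16 other fits in which it passed, and leaving out 1 lung gave changes from 0.83 to 1.72. In *Vangl2* lungs the groups overlapped at both ages. At P2 the controls alone spread 4.86-fold, at 1602, 899 and 329, with mutants at 1695, 1156 and 582. Replicate 3 was the lowest lung of both groups. Over 23 lungs Pearson's r of *Cyp26b1* was -0.74 with the cycling cell list, 0.69 with that of matrix fibroblasts and lipofibroblasts and 0.64 with that of alveolar type I cells centred on tables, and -0.67, 0.64 and 0.49 centred on groups. The cycling sum of P2 *Ror2* was lowest, at 1237, in mutant replicate 3, which had the highest *Cyp26b1*, and highest among the mutants, at 9385, in replicate 2, which had the lowest. The sums of 8 alveolar type I markers ran from 72637 to 81508 in P2 *Ror2* controls and from 83724 to 119468 in mutants, and were 77492 and 77674 in 2 P5 controls and 78977 to 93869 in mutants. Those of 9 fibroblast markers ran from 113712 to 119189 and from 101498 to 113973 at P2, and were 171487 and 177425 in 2 P5 controls and 116888 to 162105 in mutants. These sums tended to be lower in mutants while *Cyp26b1* was higher, against the sign of its r. The r was taken with the mean log2 value of the listed genes, whereas a sum weighs abundant genes most. The median log2 fold change of this list was 0.16 at P2 and 0.01 at P5 in *Ror2* mutants. None of the markers of these 3 lists passed the threshold in *Ror2* mutants, and their part in the *Cyp26b1* values was not tested.

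The genes most like each of the 9 were found by Pearson's r over 23 or 24 lungs among 14353 genes, on log2 values centred on each table, as a description with no test. For *Aldh1a1* they were *Fhad1*, *Mak* and *Ccdc11* (r = 0.96 each), of which *Mak* encodes a kinase of cilia, with r of 0.83 to 0.88 centred on groups. For *Aldh1a2* they were the mesothelial genes *Wt1*, *Lrrn4* and *Upk3b* (r = 0.93, 0.93 and 0.92, and 0.94 each centred on groups). For *Crabp1* they were *H2afy2*, *Pdia4* and *Hoxb2* (r = 0.92 each, 0.71 to 0.76 centred on groups). *Cyp26b1* was most like *Ttc38*, *Ntn4* and *Trpm4* (r = 0.89, 0.85 and 0.84), and *Rarb* most like *Ttll13*, *Ttll3* and *Dnahc10* (r = 0.79, 0.77 and 0.76). The nearest genes of *Rbp4*, *Aldh1a3*, *Crabp2* and *Stra6* reached 0.80, 0.76, 0.74 and 0.74.

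Other genes of the pathway were taken from 5 lists, of which 82 genes were in the tables. In P2 *Vangl2* mutants 3 of the 75 tested passed the threshold, beside 3.59% of all genes. These 3 were lower, but of the 25 list genes at an unadjusted p under 0.05 there 16 were higher and 9 lower. In the other comparisons 0 of 75, 74 and 72 passed in limma, with 27, 17 and 19 at an unadjusted p under 0.05. *Adh1*, an alcohol dehydrogenase that can oxidize retinol, fell from 12691 ± 522 to 7496 ± 1483 (log2 fold change -0.78, SE 0.15, adjusted p = 0.0344). *Hoxa4* and *Hoxb2*, homeobox genes that retinoic acid induces in the embryo, fell from 474 ± 15.3 to 262 ± 46.4 (-0.87, SE 0.16, adjusted p = 0.0338) and from 862 ± 64.7 to 526 ± 88.3 (-0.72, SE 0.14, adjusted p = 0.0387). The log2 fold change of *Adh1* in P5 *Vangl2* and in P2 and P5 *Ror2* mutants was -1.01, -0.95 and -0.73, with adjusted p of 0.125, 0.203 and 0.249. The list of genes induced by retinoic acid had a median log2 fold change of -0.23 and -0.48 in P2 and P5 *Vangl2* mutants and of -0.01 and -0.12 in P2 and P5 *Ror2* mutants, with 2, 0, 0 and 0 of its genes past the threshold. In the P5 *Vangl2* lungs the summed counts of markers of matrix fibroblasts and lipofibroblasts (9 genes), pericytes (6) and endothelial cells (6) were lower too, from 145239 to 164029, 44032 to 44578 and 66077 to 73187 in controls and from 86654 to 121955, 20974 to 35451 and 37625 to 60688 in mutants. A sum weighs abundant genes most, and by gene the fibroblast list was mixed. Its median log2 fold change was -0.14, with 2 genes higher and 3 lower at an unadjusted p under 0.05 in limma. The pericyte and endothelial lists had medians of -0.60 and -0.55, with 0 genes higher and 4 and 5 lower. None of these markers passed the threshold, and their part in the values of the list was not tested. Retinol and retinal oxidoreductases, the list of *Adh1*, had medians of 0.26, 0.44, 0.18 and 0.08 in the same order, so *Adh1* moved against the median of its list.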

How the data were processed

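For each comparison the authors deposited a table of 23420 genes of signal values (normalized counts), that is gene reads scaled by the size factor of each lung. Per the labels, reads were processed on mm10 with DESeq2; the aligner and the counting by strand are not given in the sources used here. Replicates were not pooled, and no label says that each lung came from a separate mouse, so p-values measure the spread between these samples. The deposited fold changes and p-values of the authors were not used.

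Within each table, log2(normalized count + 1) was fitted with limma 3.58.1 under R 4.3.3, using eBayes with a trend, for genes that reached a normalized count of 1 in 3 or more lungs. Benjamini-Hochberg adjustment covered every gene tested, and 0.05 was the threshold. Differences between comparisons were fitted over the 12 lungs of both tables. Control replicate 1 of P5 *Ror2* was set to missing for 8239 genes, of which 154 had no assigned chromosome and were masked as well. Of 59 expressed genes without a chromosome, 15 were at 0 in that lung. Recovered reads lay within 0.02 of a whole number. The fit was tested on simulated data. edgeR (version 4.0.16) and DESeq2 (version 1.42.0) were run on recovered reads of the P2 tables as alternatives.

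The labels do not say which lungs share a litter. Deviations of same-numbered lungs from their group means correlated at P5 *Vangl2* (r = 0.512, 0.511 and 0.284), so the replicate number was also fitted as a block. The main fit had no block in any comparison, and values are from it unless the block is named. The 9 genes and all gene lists were chosen with earlier results of these data known. Named besides them were Vangl2, Ror2, Xist, list genes past the threshold (at most 5 per comparison), the 3 genes most like each gene and markers a result turns on.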

Additional observations from a re-analysis of the deposited data

How the results depend on the processing

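Limits: 3 lungs per group set the precision, sexes were unbalanced, 1 control lung lacked part of the genome and whole lobes mix cell types. Over 542 refits of the 36 fold changes of the 9 genes, 536 moved by less than 1 SD of the lungs and 6 by more. Of these 6, 1 was Crabp1 at P2 *Vangl2* with a pseudocount of 8. The other 5 were the genes with a missing control lung at P5 *Ror2* when its zeros were kept as deposited. There Crabp1 stood at 1.95 in place of -1.09. Leaving out 1 lung cannot move a fold change by more than this SD, and fits that change only the variance keep it. Most of the 536 were thus fixed in advance, and stability is not read from them. No called gene changed sign, but changes that were not called did, as *Aldh1a2* at P2 *Vangl2*, from -0.68 to 0.17 leaving out 1 lung. Counts of calls moved more, and the cause was not tested. All genes and, of the 9, those called were as follows. P2 *Vangl2* had 626 and 2, and 1 and 0 without the trend, 45 and 1 with 12 lungs in one fit, 2001 genes by DESeq2, and 1 to 2333 and 0 to 3 leaving out 1 lung, highest without mutant replicate 3. P5 *Vangl2* had 98 and 1, and 4 and 0 without the trend, 1558 and 2 with the replicate block, 978 and 2 with 12 lungs, and 0 to 54 and 0 to 1 leaving out 1 lung. P2 *Ror2* had 0 and 0, and 2 genes without the trend, 1 with the replicate block, 794 and 2 by DESeq2, and 0 to 859 and 0 to 1 leaving out 1 lung, highest without mutant replicate 2. P5 *Ror2* had 31 and 0, and 20 genes with a pseudocount of 0.1, 19 with a mean of at least 20, 11 without the trend, 1 with the replicate block, 3 with 12 lungs, 1 with control replicate 1 as deposited, and 0 to 893 and 0 to 1 leaving out 1 lung, highest without mutant replicate 3. The difference of *Vangl2* and *Ror2* at P5 had 2 genes, and 0 to 4 leaving out 1 lung. Same-numbered lungs of the other tables did not all correlate (r = -0.008, 0.056 and 0.178 at P2 *Vangl2*, 0.032, 0.344 and 0.221 at P2 *Ror2*, 0.073, -0.087 and -0.159 at P5 *Ror2*). At P2 *Ror2* control 2 with mutant 3 and control 3 with mutant 2 had r of -0.313 and -0.224. The block raised the genes at an unadjusted p under 0.05 in limma there from 3380 to 4242. Whether those lungs were paired was not tested. Beyond the counts above the replicate block changed no other call of the 9. Count tests were not run on the P5 tables, since whole reads were not recovered in 3 lungs.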
